A study of Mus musculus with 12 samples.

Results

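Interferon-inducible genes are genes whose transcription rises when interferons reach a cell. The set described here holds 43 such genes, taken by gene symbol, and 37 of them were measured by at least 1 probe set that carries a single symbol, with 49 probe sets in all, out of 12394 such genes and 22690 probe sets on the array. Isg15 and Tgtp1 had only probe sets that several symbols share, and Dtx3l, Ifi44, Xaf1 and Ly6e were not listed under a probe set. The 43 symbols were chosen by name with the intensities and fold changes of these same arrays already known, and which contrast led to each gene is not recorded, so the numbers below describe the set and no test was made over it.

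RNA came from the small intestine of male mice, 14 weeks old by the labels, that were wild-type (129S1/SvImJ) or PPARα-null (129S4/SvJae) and were either fed or fasted for 24 h. PPARα is the nuclear receptor that fatty acids activate during fasting, and the PPARα-null mice lacked it throughout the body. The labels give AIN93M as the diet of every group and the methods a standard laboratory chow, and the fed arrays carry only 129Sv as their strain label. Each of the 4 groups had 3 arrays of biological replicates, 12 arrays in all, and no source used here says whether a replicate was 1 mouse, so the p-values below measure the spread between these samples.

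Genotype and substrain cannot be told apart in this design. One text label of the wild-type fasted arrays calls them knockout, while their titles and strain labels call them wild-type, and the titles were followed. Ppara itself read 19.9, 34.0 and 35.9 in wild-type fed, 58.7, 48.1 and 30.8 in wild-type fasted, 6.84, 7.50 and 7.35 in PPARα-null fed and 13.2, 11.7 and 11.0 in PPARα-null fasted arrays (intensity units, replicates 1 to 3). Every array labelled PPARα-null thus lay below every array labelled wild-type, and whether this probe set lies outside the deleted part of the gene is not known here.

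Interferons are secreted proteins that warn cells of viruses and other intracellular microbes. Type I interferons bind the receptor chains Ifnar1 and Ifnar2, interferon gamma binds Ifngr1 and Ifngr2, and both receptors work through Jak kinases that activate Stat transcription factors. Type I signalling assembles Stat2 and Irf9 into a complex that binds the interferon-stimulated response element (ISRE), whereas interferon gamma acts through gamma-activated sites (GAS) and induces the transcription factor Irf1. In the small intestine a basal level of these genes is kept up by signals from microbes and from the lymphocytes that sit between the epithelial cells.

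The motifs of both branches can be read in front of the genes themselves. The 250 bases before the start site are printed 5′ to 3′ for 6 genes, on the strand of the gene, with matches to the ISRE letters (GAAA, any 2 bases and GAAA again) and the GAS letters TTCNNNGAA, on either strand, in capitals. They were chosen because Irgm2, Igtp and Tmem140 are among the members with the widest range of group means, Ifit1 and Oas1a stand for the antiviral effectors, and Irf1 carries a GAS match without an ISRE match. They are RefSeq sequences of GRCm38.p6, at chr11:58214727-58214976 for Irgm2, chr11:58199306-58199555 for Igtp, chr19:34640639-34640888 for Ifit1, chr6:34862896-34863145 for Tmem140 and chr11:53769764-53770013 for Irf1, all on the plus strand, and at chr5:120907526-120907775 on the minus strand for Oas1a.
Irgm2: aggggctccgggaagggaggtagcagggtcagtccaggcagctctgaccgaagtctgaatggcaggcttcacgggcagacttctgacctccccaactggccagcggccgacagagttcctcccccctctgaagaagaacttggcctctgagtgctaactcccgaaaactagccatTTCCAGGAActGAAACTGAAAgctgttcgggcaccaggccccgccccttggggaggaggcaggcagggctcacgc
Igtp: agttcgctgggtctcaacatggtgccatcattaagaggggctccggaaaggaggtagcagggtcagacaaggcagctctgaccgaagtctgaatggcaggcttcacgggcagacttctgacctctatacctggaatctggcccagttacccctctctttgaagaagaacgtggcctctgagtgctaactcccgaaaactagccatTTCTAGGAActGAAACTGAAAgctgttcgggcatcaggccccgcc
Ifit1: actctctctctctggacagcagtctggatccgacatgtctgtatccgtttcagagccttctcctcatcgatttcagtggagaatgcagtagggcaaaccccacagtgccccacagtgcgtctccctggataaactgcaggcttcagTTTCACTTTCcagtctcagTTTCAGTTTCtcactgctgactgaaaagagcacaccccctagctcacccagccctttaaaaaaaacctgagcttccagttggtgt
Tmem140: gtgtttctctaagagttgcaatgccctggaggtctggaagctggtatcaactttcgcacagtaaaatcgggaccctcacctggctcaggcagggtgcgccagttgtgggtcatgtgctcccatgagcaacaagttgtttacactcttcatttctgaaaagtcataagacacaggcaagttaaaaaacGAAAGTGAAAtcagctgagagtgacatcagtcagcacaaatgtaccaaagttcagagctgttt
Irf1: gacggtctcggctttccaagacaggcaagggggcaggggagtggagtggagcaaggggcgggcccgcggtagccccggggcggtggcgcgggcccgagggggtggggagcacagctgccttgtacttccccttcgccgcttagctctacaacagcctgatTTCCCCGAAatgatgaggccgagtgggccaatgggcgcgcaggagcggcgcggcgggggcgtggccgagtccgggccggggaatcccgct
Oas1a: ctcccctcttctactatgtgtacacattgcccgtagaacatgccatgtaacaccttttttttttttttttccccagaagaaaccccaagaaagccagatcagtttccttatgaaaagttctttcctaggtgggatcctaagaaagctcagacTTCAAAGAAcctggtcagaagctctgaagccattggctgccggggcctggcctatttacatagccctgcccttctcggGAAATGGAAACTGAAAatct
In Irgm2 and Igtp, which are next to each other on chromosome 11, a GAS match was followed after 2 bases by an ISRE match. Ifit1 held 2 ISRE matches that read on the minus strand, and in Oas1a 2 ISRE matches overlapped. Over windows of 300 bases (250 before and 50 after the start), an ISRE match was found for 15 of the 30 measured members with a window, which is 50% against 3.99% of all 27025 genes. A GAS match was found for 9 of the 30, or 30%, against 9.55% of all genes. The windows of Psmb9 and Tap1, which are transcribed in opposite directions, share 275 bases and are not independent. A match is a description of letters and not a measured binding site.

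Over the whole set, the interferon-inducible genes were lowest in fasted PPARα-null intestine. The group mean of PPARα-null fasted mice was the lowest of the 4 for 33 of the 37 members, against 38% of all genes, and the geometric mean of the 37 intensities was 36.8 to 43.1 in these arrays. It was 62.6 to 80.5 in wild-type fasted, 99.7 to 120.6 in wild-type fed and 96.5, 103 and 224 in PPARα-null fed arrays. As deposited, the 3 arrays of PPARα-null fasted mice were therefore below all others without overlap. Wild-type fasted arrays lay between them and the fed arrays, a place that depends on the common shift of fasted arrays given below.

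One array stood apart. In PPARα-null fed replicate 3 the median member was 0.93 higher on the log2 scale than in the other 2 arrays of its group, 35 of the 37 members exceeded both, and 16 did so at least 2-fold, against 44 of 6102 expressed genes (0.721%). Of those 44 genes, 16 were members, 6 were on the list of other interferon pathway genes and 22 were on neither list. Among the 22 were Ubd (466 against 75.7 and 62.2) and exocrine pancreas genes such as Cela3b (357 against 10.2 and 28.5). The antiviral genes stood out in it. Usp18, which removes the ubiquitin-like protein Isg15 from its targets, read 248 against 12.9 and 14.9. Rsad2, the antiviral enzyme viperin, read 327 against 26.7 and 29.3, and Ifit3, a partner of Ifit1 in binding viral RNA, 520.1 against 64.5 and 71.4. The same array was also high in genes of the stomach lining, Gkn1 (2371 against 7.01 and 9.53), Gkn2 (3867 against 8.84 and 15.8) and Tff1 (1787 against 10.1 and 11.0), which were singled out after their values were seen, and their part in the members' levels was not tested. Its geometric mean over 5 genes of all leukocytes, 230.2, was not above those of the other 2 arrays, 250.2 and 248. Counts of calls and median changes over all members that use this group are given below with and without this array. So are the fasting changes in PPARα-null mice of many single members. Other counts and medians, among them those at p under 0.05 and those of other pathway and marker genes, rest on all its arrays.

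**Figure D1:**
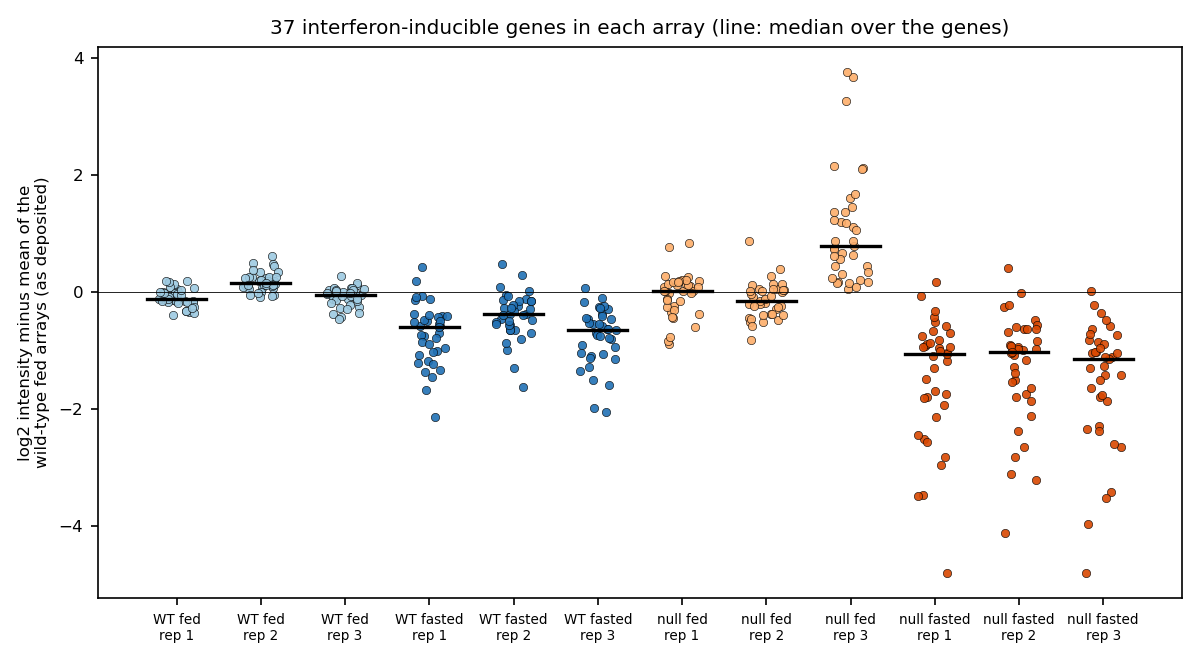
Each point is 1 of the 37 interferon-inducible genes in 1 array, as its log2 intensity minus its mean over the wild-type fed arrays (as deposited), and the line is the median over the genes. PPARα-null fed replicate 3 sits above the other fed arrays, and the 3 PPARα-null fasted arrays are the lowest.

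Changes upon fasting are given relative to a common shift of −0.32 (log2), the median difference between fasted and fed arrays over the expressed probe sets, whereas intensities are printed as deposited and include it. As deposited, every fasted array lay below every fed array for 21 of the 37 members in wild-type and 34 in PPARα-null mice. Over all 12394 genes this held for 5293 and 5251. Fed and fasted arrays each have their own distribution of values, so that feeding state and array set cannot be told apart in this shift. The same holds for the fasting change of each gene, since only 1 constant was subtracted. A gene was called when limma gave one of its probe sets a fold over 1.3 with p under 0.01 before adjustment. For fasting the mean over wild-type fed arrays also had to exceed 20 intensity units, which left 33 of the 37 members (Bst2, Cxcl9, Ifit2 and Usp18 fell below).

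Upon fasting of PPARα-null mice 24 of the 33 members tested fell, and none was called higher. Of all 5821 genes tested, 29.1% were called lower and 22.6% higher in this contrast. At an unadjusted p under 0.05, 28 members were lower and none higher in limma. The median change over all 37 members was −1.15 on the log2 scale, against 0.17 over all genes. Without PPARα-null fed replicate 3 the median was −0.70, 22 members were called lower (27.7% of all genes), of which 20 were shared, and Irf9 was called higher. Members that only then passed were Rsad2 and Trim30a, and Irf7, Irgm1, Iigp1 and Cxcl10 no longer did.

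The interferon-inducible GTPases fell in fasted PPARα-null mice for 6 of 7 members, against 29.1% of all genes. These proteins gather on the vacuoles of intracellular parasites and bacteria and help to destroy them. Irgm1, Irgm2, Igtp, Iigp1, Ifi47 and Gbp2 fell and Gbp3 did not pass (−0.16 ± 0.14, SE). Iigp1 was called by its weaker probe set (−1.25 ± 0.40) and not by the stronger one (−0.51 ± 0.30), and neither probe set was called without PPARα-null fed replicate 3. Irgm1 fell by 1.54 ± 0.46, but lost its call without that array (−0.84 ± 0.28), and also without any single PPARα-null fasted array. Irgm2 read 195, 295 and 258 in wild-type fed, 76.7, 262 and 118 in wild-type fasted, 249.6, 172 and 529 in PPARα-null fed and 8.78, 14.1 and 8.85 in PPARα-null fasted arrays. The last group lay below all other arrays and under 20 intensity units, while wild-type fed and fasted arrays overlapped. The change was −4.46 ± 0.43 (limma adjusted p = 3.6e-06), and −4.01 ± 0.41 without PPARα-null fed replicate 3. The deposited values carry no detection call. For genes whose PPARα-null fasted arrays read under 20 (Irgm2, Igtp, Iigp1, Irgm1, Gbp2, Oasl2 and Zbp1) the size of the change is therefore uncertain. No fold is given for them, and their place in any order by size or range is uncertain too. Tmem140 (18.1, 22.4 and 27.1) and Parp14 (22.5, 29.2 and 22) read near 20 in these arrays, so their folds share this limit.

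Igtp, the neighbour of Irgm2 that also encodes an immunity-related GTPase, had 123, 228 and 153 in wild-type fed, 36.9, 199.9 and 57.4 in wild-type fasted, 95.5, 91.5 and 493 in PPARα-null fed and 14.6, 17.5 and 10.4 in PPARα-null fasted arrays. It fell by 3.24 ± 0.64 in PPARα-null mice, or by 2.43 ± 0.53 without the high fed array. Wild-type fasted replicate 2 was the highest of its group for both genes, at least 2-fold above the other 2 arrays, as it was for Iigp1 and Zbp1. Ifi47 went from 219, 278 and 226 in wild-type fed to 102, 162 and 94.5 in wild-type fasted arrays, and from 243, 195 and 372 in PPARα-null fed to 42.1, 55.5 and 38.2 in PPARα-null fasted arrays. Fed and fasted arrays did not overlap in either genotype, and the changes of Ifi47 were −0.73 ± 0.24 in wild-type and −2.23 ± 0.24 in PPARα-null mice.

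Among the transcription factors, Irf1 and Irf8 were lower and Irf9 was not. Irf1, which carries the interferon gamma response to its targets, read 615, 776 and 662 in wild-type fed, 456, 492 and 434 in wild-type fasted, 787, 597 and 785 in PPARα-null fed and 197, 203 and 195 in PPARα-null fasted arrays. Replicates lay close together, the PPARα-null fasted arrays had less than any other array, and the change in PPARα-null mice was −1.54 ± 0.12 (2.90-fold, limma adjusted p = 5.1e-07). Irf8, a factor of myeloid and B cells that also acts with Irf1, read 293, 389 and 319 in wild-type fed, 164, 256 and 191 in wild-type fasted, 354, 341 and 373 in PPARα-null fed and 87.3, 136 and 123 in PPARα-null fasted arrays, and fell by 1.33 ± 0.18 in PPARα-null mice. A second probe set of Irf8, which read 25.3 to 58.5 over all arrays, gave −0.20 ± 0.21 and did not pass.

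Irf9, the DNA-binding part of the type I complex, read 75.4, 75.6 and 84.9 in wild-type fed, 89.9, 75.4 and 73.5 in wild-type fasted, 66.3, 58.0 and 124 in PPARα-null fed and 74.9, 77.7 and 79.5 in PPARα-null fasted arrays. All 4 groups overlapped. Its partner Stat2 read 66.7, 67.9 and 59.5 in wild-type fed, 49.7, 41.3 and 30.3 in wild-type fasted, 34.9, 45.5 and 166 in PPARα-null fed and 23.1, 22.6 and 24.1 in PPARα-null fasted arrays, with a change of −1.15 ± 0.41 in PPARα-null mice, or −0.46 ± 0.18 without PPARα-null fed replicate 3, that did not pass. Irf7, the amplifier of type I interferon production, fell by 0.71 ± 0.22 in PPARα-null mice, a call that was lost without PPARα-null fed replicate 3 (−0.41 ± 0.17). The call was also lost without wild-type fed replicate 1, PPARα-null fasted replicate 1 or PPARα-null fasted replicate 3. In wild-type mice Irf7 changed by −0.58 ± 0.22, which did not pass.

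The antiviral effectors were the largest group, with 11 measured and 8 tested, of which Ifit1, Oasl2, Oas1a, Zbp1, Ifih1 and Rtp4 fell upon fasting of PPARα-null mice. Of all genes tested 29.1% were called lower in this contrast. Ifit1, which binds viral RNA, read 397, 393 and 336 in wild-type fed, 223, 239 and 224 in wild-type fasted, 425, 379.6 and 1623 in PPARα-null fed and 85.1, 119.7 and 73.5 in PPARα-null fasted arrays. The change of Ifit1 in PPARα-null mice was −2.50 ± 0.40, and −1.83 ± 0.17 without the array of 1623. Oasl2, an oligoadenylate synthetase-like protein, read 109, 104 and 115 in wild-type fed, 47.3, 44.1 and 27.5 in wild-type fasted, 116, 79.2 and 347 in PPARα-null fed and 15.4, 15.5 and 10.2 in PPARα-null fasted arrays. Fed and fasted arrays were apart in both genotypes, and Oasl2 fell by 3.14 ± 0.41 in PPARα-null mice (by 2.52 ± 0.24 without PPARα-null fed replicate 3) and changed by −1.18 ± 0.41 in wild-type mice, which did not pass.

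Zbp1, a sensor of Z-form nucleic acids that can trigger cell death, read 77.3, 132 and 88.2 in wild-type fed, 35.5, 87.9 and 23.3 in wild-type fasted, 80.5, 64.4 and 202 in PPARα-null fed and 16.4, 18.6 and 19.7 in PPARα-null fasted arrays. It fell by 2.17 ± 0.45 in PPARα-null mice, and by 1.67 ± 0.41 without PPARα-null fed replicate 3. Rtp4, an interferon-induced protein first known as a chaperone of taste receptors, read 124, 175 and 121 in wild-type fed, 54.7, 45.0 and 63.4 in wild-type fasted, 155, 135 and 358 in PPARα-null fed and 56.3, 53.0 and 44.4 in PPARα-null fasted arrays. The fasted groups of Rtp4 overlapped each other and both lay below the fed arrays. In PPARα-null mice Rtp4 fell by 1.63 ± 0.29, and by 1.19 ± 0.18 without PPARα-null fed replicate 3. A second probe set of Rtp4, at 10.1 to 20.2 over all arrays, was not above the level needed for the test.

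Oas1a, which makes the messenger that activates RNase L, fell by 1.08 ± 0.24 and Ifih1, the cytosolic RNA sensor Mda5, by 0.90 ± 0.20 in PPARα-null mice. Without PPARα-null fed replicate 3 the falls were 0.70 ± 0.13 and 0.64 ± 0.16. The genes that were most raised in PPARα-null fed replicate 3 did not pass. Ifit3 read 61.1, 58.4 and 44.6 in wild-type fed, 38.9, 45.8 and 39.4 in wild-type fasted and 60.7, 71.8 and 42.0 in PPARα-null fasted arrays, so that without the fed array of 520.1 its change in PPARα-null mice was 0.06 ± 0.20. Usp18 read 19.2, 20.3 and 19.1 in wild-type fed, 17.8, 11.2 and 11.6 in wild-type fasted and 5.53, 10.2 and 6.85 in PPARα-null fasted arrays. Rsad2 read 27.4, 28.7 and 17.9 in wild-type fed, 13.4, 15.3 and 16.1 in wild-type fasted and 14.9, 12.8 and 13.0 in PPARα-null fasted arrays, with a change of −1.91 ± 0.68 in PPARα-null mice that did not pass with all arrays and −0.73 ± 0.18, which passed, without PPARα-null fed replicate 3. Usp18 and Rsad2 were thus near or under an intensity of 20 outside that array, and Bst2, Ifit2 and Cxcl9 were under it in every array or in all but 1.

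Of 5 measured genes of antigen processing 3 fell upon fasting of PPARα-null mice, against 29.1% of all genes. Psmb8, Psmb9 and Psmb10 are the catalytic subunits of the immunoproteasome, the form of the proteasome that interferon gamma brings about, and Tap1 and Tap2 carry the resulting peptides into the endoplasmic reticulum. Psmb8, Psmb9, Tap1 and Tap2 are neighbours on chromosome 17. Psmb9 read 374, 510.3 and 405 in wild-type fed, 219.8, 301 and 223 in wild-type fasted, 421, 355 and 539 in PPARα-null fed and 78.0, 118 and 70.1 in PPARα-null fasted arrays. Its PPARα-null fasted arrays were below all others, and it fell by 2.01 ± 0.21 (4.02-fold) in PPARα-null mice.

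Psmb8 read 1359, 1655 and 1557 in wild-type fed, 748, 1029.5 and 806 in wild-type fasted, 1394, 1314 and 1687 in PPARα-null fed and 468, 521 and 449 in PPARα-null fasted arrays. It fell in both genotypes, by 0.52 ± 0.13 in wild-type and by 1.29 ± 0.13 in PPARα-null mice. Psmb10 read 1001, 1176 and 1091 in wild-type fed, 628, 866 and 742 in wild-type fasted, 1188, 1122 and 1286 in PPARα-null fed and 482, 555 and 489.5 in PPARα-null fasted arrays, and fell by 0.92 ± 0.12 in PPARα-null mice. All 3 subunits were lowest in the PPARα-null fasted arrays without overlap. Tap1 (−0.48 ± 0.29) and Tap2 (−0.54 ± 0.21) did not pass, and 3 further probe sets of Tap1 read under an intensity of 6 in every array.

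Parp14 and Parp9 are ADP-ribosyltransferases that tune the interferon response, and their genes are close to each other on chromosome 16. Parp14 read 250, 327 and 198 in wild-type fed, 136, 177 and 206 in wild-type fasted, 292, 278 and 575 in PPARα-null fed and 22.5, 29.2 and 22 in PPARα-null fasted arrays. The last group was below every other array, and Parp14 fell by 3.57 ± 0.26 (11.9-fold, limma adjusted p = 3.9e-07) in PPARα-null mice. Parp9 read 469, 432 and 441 in wild-type fed, 315, 383 and 373 in wild-type fasted, 542, 494 and 688 in PPARα-null fed and 213, 217 and 217 in PPARα-null fasted arrays, and fell by 1.08 ± 0.12. The PPARα-null fasted arrays of Parp9 did not overlap with any other array either.

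Tmem140, a membrane protein of little-known function, was level across the 3 PPARα-null fed arrays, including the one that stood apart. It read 136, 177 and 115 in wild-type fed, 133, 106 and 103 in wild-type fasted, 239.9, 256 and 257 in PPARα-null fed and 18.1, 22.4 and 27.1 in PPARα-null fasted arrays. The PPARα-null fed arrays were above, and the PPARα-null fasted arrays below, all other arrays. It fell by 3.18 ± 0.17 (9.06-fold, limma adjusted p = 3.3e-08) upon fasting of PPARα-null mice and changed by 0.01 ± 0.17 in wild-type mice.

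Ifi35 and Nmi form a complex that is released by infected cells and alerts macrophages. Ifi35 read 437, 534 and 516 in wild-type fed, 456, 409 and 419 in wild-type fasted, 554, 499 and 675 in PPARα-null fed and 292, 261 and 300.2 in PPARα-null fasted arrays, and fell by 0.69 ± 0.12 in PPARα-null mice. Nmi read 430.3, 394 and 433 in wild-type fed, 297, 320.4 and 348 in wild-type fasted, 423, 429 and 518 in PPARα-null fed and 197, 268 and 194 in PPARα-null fasted arrays, and fell by 0.75 ± 0.13. For both genes the PPARα-null fasted arrays had the lowest values. Of the chemokines that draw in T cells, Cxcl10 fell by 1.21 ± 0.32, and Cxcl9 read 5.65 to 10.1 over all arrays. The call of Cxcl10 was lost without PPARα-null fed replicate 3 (−0.90 ± 0.31), and also without PPARα-null fed replicate 1. Sp100, a nuclear body protein (−0.26 ± 0.26), and Trim30a, a ring finger protein (−1.36 ± 0.46), did not pass, while without PPARα-null fed replicate 3 Trim30a passed at −0.59 ± 0.18.

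**Figure D2:**
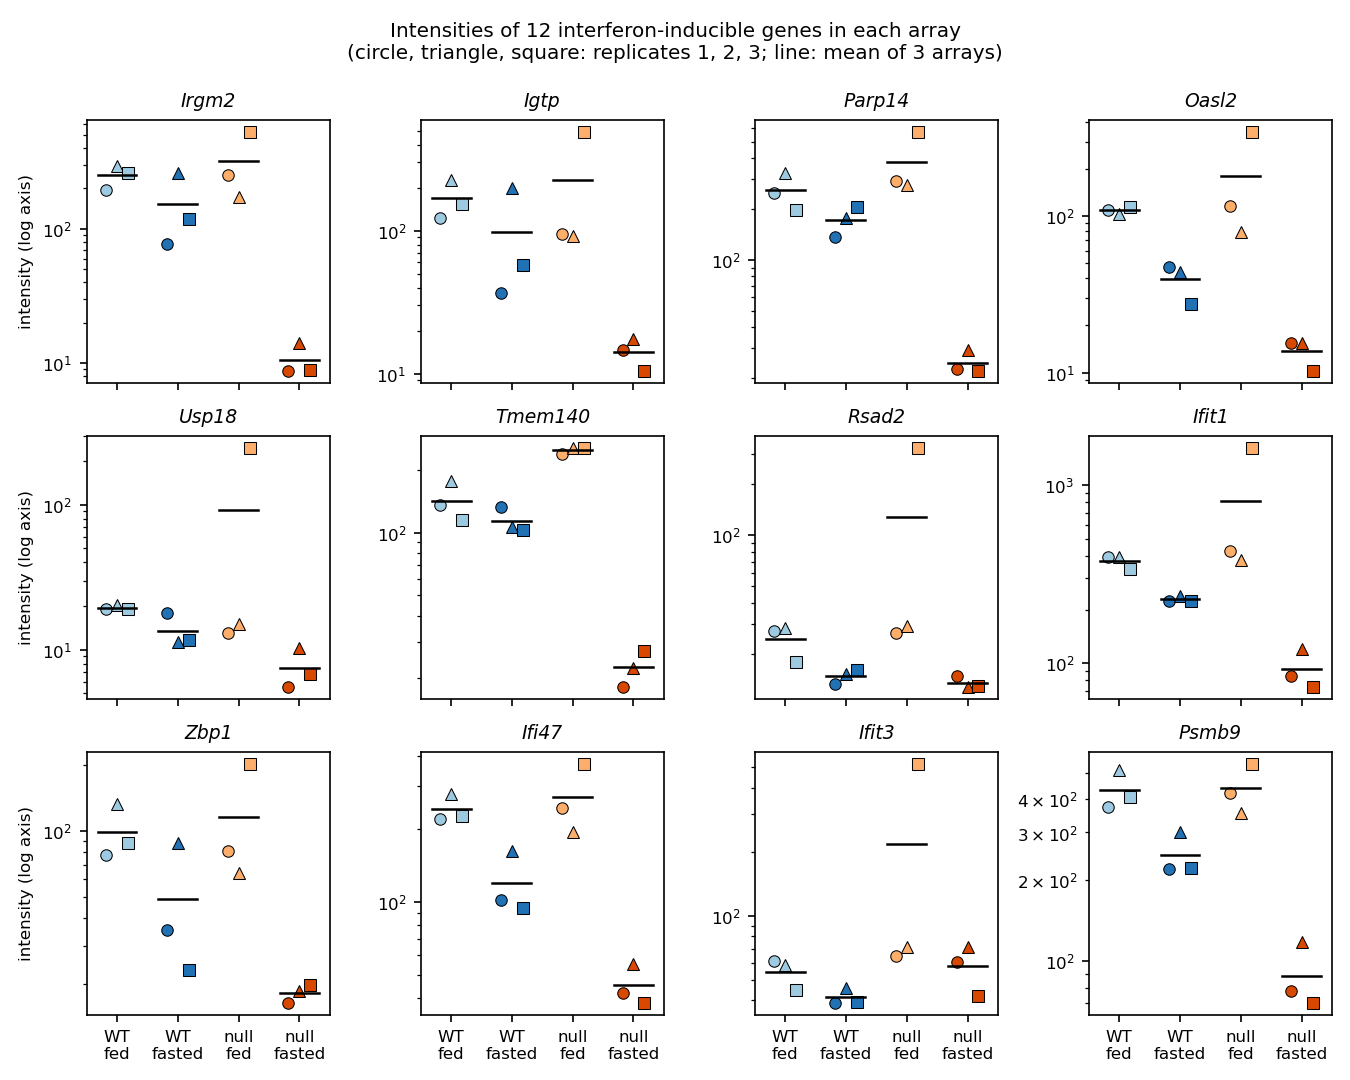
Intensity (log axis, as deposited) of the 12 interferon-inducible genes with the widest range of group means, in each of the 12 arrays, with marks for replicates 1, 2 and 3 and a line at the group mean. PPARα-null fed replicate 3 is the highest array in most panels, while Tmem140 reads 239.9 to 257 in all 3 PPARα-null fed arrays and 18.1 to 27.1 in the PPARα-null fasted ones.

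Fasting of wild-type mice called 3 of the 33 members tested lower, Ifi47, Psmb8 and Rtp4, or 9.09%, against 9.95% of all genes, and none higher, against 12.9%. At an unadjusted p under 0.05 the counts were 7 lower and none higher in limma. Rtp4 fell by 1.04 ± 0.29 (2.06-fold, limma adjusted p = 0.021). The median change over the 37 members was −0.25, against 0.13 over all genes. The most abundant members without a call were Psmb10 (−0.24 ± 0.12), Irf1 (−0.25 ± 0.12) and Ifi35 (0.11 ± 0.12). The share of members called lower was near that of all genes, and the count depended on single arrays and on the shift, with 12 called lower as deposited, none without wild-type fed replicate 2, 1 without wild-type fasted replicate 1 and 5 without wild-type fasted replicate 2. It was also 7 without PPARα-null fed replicate 3 and 5 without PPARα-null fed replicate 2, arrays that enter this contrast only through the shared estimate of the spread and the shift. Of the 3 calls, those of Psmb8 and Rtp4 were each lost without 2 of the single arrays, wild-type fed replicate 2 in both cases (−0.45 and −0.87), wild-type fasted replicate 1 for Psmb8 (−0.42) and wild-type fasted replicate 2 for Rtp4 (−0.91), and that of Ifi47 without 8 of the 12 (−0.79 to −0.59).

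**Figure D3:**
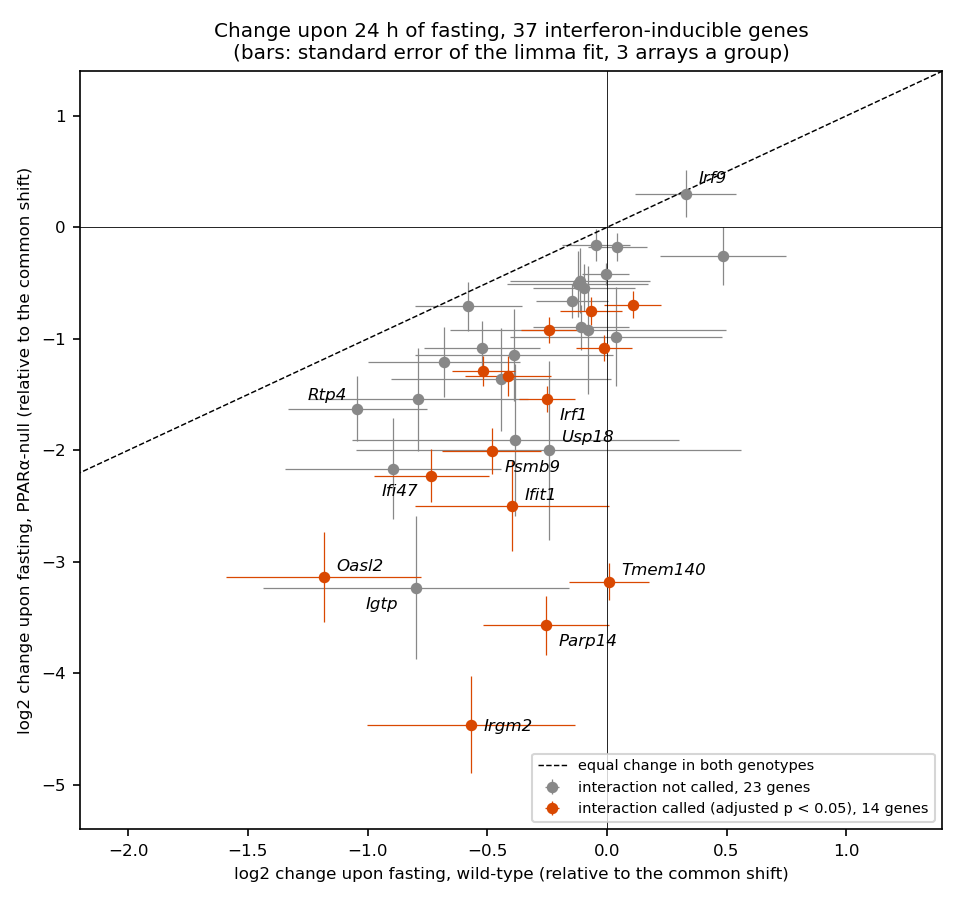
Log2 change upon 24 h of fasting relative to the common shift in wild-type mice (x axis) and PPARα-null mice (y axis), with standard errors of the limma fit as bars, for the 37 interferon-inducible genes. All points but that of Irf9 lie under 0 on the y axis. All 37 points lie under the dashed line of equal change, and the interaction was called for 14 of these genes.

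In fed mice the genotypes differed little. Of 35 members tested, Tmem140 was higher in PPARα-null mice (0.84 ± 0.17, 1.79-fold, limma adjusted p = 0.046), against 1.42% of all genes called higher. No member was called lower, against 2.02% of all genes, and at an unadjusted p under 0.05 Ifit3, Parp9 and Tmem140 were higher and none lower in limma. Every PPARα-null fed array lay above every wild-type fed array for these same 3 members, against 8.54% of all genes. The most abundant members without a call were Psmb8 (−0.06 ± 0.13), Psmb10 (0.14 ± 0.12) and Irf1 (0.07 ± 0.12). The median difference of the 37 members was 0.14 with all arrays. Without PPARα-null fed replicate 3 it was −0.13, Tmem140 was still called higher (0.82 ± 0.19) and Stat2 was called lower (−0.70 ± 0.18).

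In fasted mice 16 of the 28 members tested, or 57.1%, were lower in PPARα-null than in wild-type mice, against 20.3% of all genes, and none was higher, against 17.1%. At an unadjusted p under 0.05 the counts were 19 lower and none higher in limma. The differences in this comparison rest on the fasted arrays without the shift, while their standard errors come from the spread within all 4 groups, fed arrays included. Parp14 was 7.01-fold lower (−2.81 ± 0.26), Tmem140 5.09-fold (−2.35 ± 0.17) and Psmb9 2.84-fold (−1.51 ± 0.21). Ifi47 (−1.38 ± 0.24), Ifit1 (−1.33 ± 0.40), Irf1 (−1.21 ± 0.12), Psmb8 (−0.83 ± 0.13) and Irf8 (−0.82 ± 0.18) were lower too. Among genes whose PPARα-null fasted arrays read under 20, the differences were −3.69 ± 0.43 for Irgm2, −2.43 ± 0.64 for Igtp, −1.52 ± 0.41 for Oasl2 and −1.51 ± 0.40 for Iigp1, the last by its probe set of lower signal. The call of Igtp was lost without wild-type fasted replicate 2 (−1.73) and without PPARα-null fasted replicate 3 (−2.23). Oasl2 lost its call without wild-type fasted replicate 1, wild-type fasted replicate 2 or PPARα-null fasted replicate 3 (−1.42 to −1.32), and Ifit1 without any single fasted array other than PPARα-null fasted replicate 2 (−1.35 to −1.18). Parp9, Ifi35, Nmi and Psmb10 were lower by 0.54 to 0.72.

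Without regard to level, every PPARα-null fasted array lay below every wild-type fasted array for 24 of the 37 members, against 17.1% of all genes. The most abundant members without a call were Oas1a (−0.13 ± 0.24), Ifih1 (−0.52 ± 0.20) and Tap1 (−0.40 ± 0.29). Rtp4 (−0.08 ± 0.29), Irf7 (0.03 ± 0.22), Cxcl10 (0.08 ± 0.32) and Irf9 (−0.04 ± 0.21) had values of fasted PPARα-null mice within the range of fasted wild-type mice or overlapping with it. The 9 members under the level filter were Bst2, Cxcl9, Gbp2, Gbp3, Ifit2, Irgm1, Rsad2, Trim30a and Usp18. The median difference over all 37 members was −0.59, against 0.04 over all genes.

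The fasting response itself differed between the genotypes for 14 of the 35 members tested, all of which fell in PPARα-null mice and changed less in wild-type mice. This share of 40% compares with 18.2% of all genes with an interaction called in that direction (adjusted p under 0.05 and fold over 1.3), and no member was called in the other direction, against 11.4%. At an unadjusted p under 0.05 the counts were 17 and none in limma. The difference of the log2 responses, wild-type minus PPARα-null, was 3.89 ± 0.61 for Irgm2, 3.32 ± 0.37 for Parp14 and 3.19 ± 0.24 for Tmem140. It was 2.10 ± 0.57 for Ifit1 (limma adjusted p = 0.019), 1.95 ± 0.57 for Oasl2 (limma adjusted p = 0.027) and 1.29 ± 0.17 for Irf1 (limma adjusted p = 0.00023). Without PPARα-null fed replicate 3 the differences were 1.43 ± 0.23 for Ifit1 and 1.34 ± 0.33 for Oasl2, both still called. The call of Oasl2 was lost when any 1 of 4 arrays was left out (1.76 to 1.92), which were replicates 1 and 2 of wild-type fasted mice, replicate 2 of wild-type fed mice and replicate 3 of PPARα-null fasted mice. Igtp, at 2.44 ± 0.91, did not pass (limma adjusted p = 0.07). The median over the 37 members was 0.79 with all arrays, against −0.02 over all genes, and 0.40 without PPARα-null fed replicate 3, when the same 14 members were called (16.7% of all genes). By promoter letters, 15 members had an ISRE match and 15 had none. Their median changes upon fasting of PPARα-null mice were −1.21 with a match and −0.92 without. These medians include PPARα-null fed replicate 3 and were not taken without it. Between fasted genotypes the medians were −0.52 with a match and −0.59 without, and for the interaction 0.79 and 0.77. None of these differences was tested.

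Other genes of the pathway were taken from a list of 172 symbols, of which 127 were measured and 75 had the level for the fasting contrasts. In PPARα-null mice 31 of the 75 fell and 14 rose upon fasting, against 29.1% and 22.6% of all genes. In wild-type mice 4 of the 75 fell and 9 rose, against 9.95% and 12.9% of all genes. Between fasted genotypes 18 of 72 tested were lower and 6 higher in PPARα-null mice, against 20.3% and 17.1% of all genes, so that the share of lower genes was near that of all genes. In fed mice none of 79 was lower and 2 (Il18 and Gch1) were higher, against 2.02% and 1.42%. The interaction was called for 17 of 79 in the direction of the members and for 5 in the other, against 18.2% and 11.4% of all genes, again a share near that of all genes for the first.

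None of the receptor genes was called lower. Ifnar1 rose by 0.54 ± 0.15 in wild-type and by 0.53 ± 0.15 in PPARα-null mice, and Ifnar2 by 1.08 ± 0.13 and 1.57 ± 0.13. Ifngr1 read 192, 200.1 and 197 in wild-type fed, 238, 252 and 249.6 in wild-type fasted, 254, 256 and 179 in PPARα-null fed and 434, 409 and 427 in PPARα-null fasted arrays. It rose by 0.64 ± 0.12 in wild-type and by 1.22 ± 0.12 in PPARα-null mice, and the responses of Ifngr1 differed (−0.57 ± 0.17, limma adjusted p = 0.025), a call that was lost without replicate 1 of either fasted group or replicate 2 of wild-type fed mice (−0.56 to −0.55). Ifngr2 changed by −0.01 ± 0.09 and 0.36 ± 0.09 and did not pass the fold of 1.3. Jak1 and Jak2, kinases of both receptors or of the gamma receptor, were each called higher in PPARα-null mice by 1 of their probe sets (0.83 ± 0.26 and 0.76 ± 0.09), but not by the probe set of highest signal (0.30 ± 0.09 and 0.18 ± 0.08), and Jak2 also in wild-type mice (0.40 ± 0.09). Tyk2, the kinase bound to Ifnar1, fell by 0.59 ± 0.16 in PPARα-null mice. Il10rb, a chain of the receptor of interferon lambda, and Stat3 were not called upon fasting.

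Of 15 measured sensors and adaptors that lead to interferon production 6 had the level for the test, and 5 of these fell in fasted PPARα-null mice, against 29.1% of all genes. Over all 15, 8 were lower and 7 higher, with a median of −0.12. Mavs, the mitochondrial adaptor of the RNA sensors, read 122, 121 and 148 in wild-type fed, 79.3, 81.6 and 85.8 in wild-type fasted, 64.7, 106 and 167 in PPARα-null fed and 16.6, 18.4 and 20.6 in PPARα-null fasted arrays, and fell by 2.19 ± 0.24. Since the PPARα-null fasted arrays of Mavs read near or under 20, the sizes of its fall and of its interaction are uncertain. Ikbke, a kinase that phosphorylates Irf3 and Irf7, fell by 2.13 ± 0.23, Irf3 by 1.61 ± 0.11, the receptor of double-stranded RNA Tlr3 by 1.45 ± 0.15 and the adaptor Myd88 by 0.47 ± 0.12. The interaction was called for Mavs (1.85 ± 0.35), Ikbke (2.2 ± 0.33), Irf3 (1.19 ± 0.15) and Tlr3 (1.25 ± 0.21). Tbk1, the kinase related to Ikbke, was called higher in both genotypes by its weaker probe set (1.03 ± 0.11 and 1.02 ± 0.11) and not by the stronger one (0.12 ± 0.11 and 0.09 ± 0.11).

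The interferons themselves could not be followed. Ifnb1 read 4.71 to 4.91, Ifng 3.59 to 4.49 and the 6 measured genes of interferon alpha 2.83 to 10.2 as group means, all under the level filter. Of the cytokines that promote interferon gamma, Il18 rose by 1.0 ± 0.23 upon fasting of wild-type mice, and was higher in PPARα-null than in wild-type mice when fed (0.86 ± 0.23), whereas Il15 did not pass in any contrast and Il12a and Il12b read under 7. Among the inhibitors, Socs1 read 1.57 to 2.11 in every array. Socs3 was called higher in fasted PPARα-null mice (1.48 ± 0.44) but rested on 1 array, with 155, 167 and 684 against 112, 81.4 and 171 in PPARα-null fed arrays. Pias1 (0.78 ± 0.19), Trim24 (0.94) and Ptpn2 (0.48) rose and Ptpn6 (−0.54) and Irf2 (−0.45 ± 0.13) fell in these mice.

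Of the other induced genes 51 were tested upon fasting, of which 23 fell and 4 rose in PPARα-null mice, against 29.1% and 22.6% of all genes. Batf2 (−2.38 ± 0.33), a factor that acts with Irf1, Ido1 (−2.16 ± 0.28), which breaks down tryptophan, Uba7 (−2.01 ± 0.24), the activating enzyme for Isg15, and Gbp7 (−1.67 ± 0.33) fell most. For Gbp7, PPARα-null fed replicate 3 read 80.8 against 32.2 and 36.6 in the other arrays of its group. Ido1 fell in wild-type mice too (−1.38 ± 0.28). Tor1aip1 (1.27 ± 0.16), Plscr1 (1.13 ± 0.17) and Nampt (0.82 ± 0.14) rose in PPARα-null mice. The most abundant genes, B2m (0.08), H2-D1 (0.07) and H2-K1 (0.26 ± 0.09), which encode major histocompatibility complex class I, were not called by their strongest probe sets, and a weaker probe set of H2-K1 was called higher (0.50 ± 0.12).

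**Figure D4:**
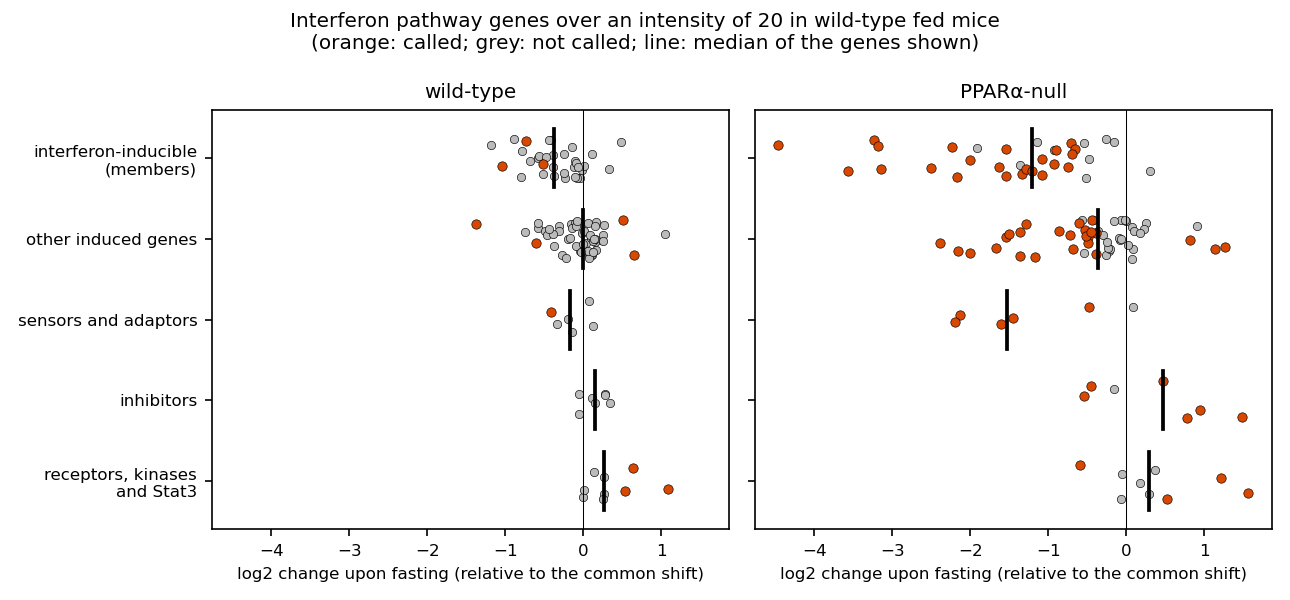
Log2 change upon fasting relative to the common shift for interferon pathway genes whose wild-type fed mean was over 20 units, by role, in wild-type (left) and PPARα-null mice (right), by the probe set of highest signal. Orange points were called and the bars are medians, and in PPARα-null mice the receptors and kinases lie mostly above 0 while members and sensors lie mostly under it.

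Genes shared by all leukocytes and genes of B and plasma cells fell upon fasting of PPARα-null mice, as many members did. Some leukocyte genes were also called lower in fed PPARα-null mice. No member was called lower there with all arrays, and Stat2 was without PPARα-null fed replicate 3. In bulk tissue fewer cells of a type and less RNA per cell cannot be told apart. All 5 genes expressed in every leukocyte (Ptprc, Cd52, Coro1a, Laptm5 and Cd53) fell upon fasting of PPARα-null mice, against 29.1% of all genes. In wild-type mice 4 of 5 fell, against 9.95% of all genes. All 5 were lower in fasted PPARα-null than in fasted wild-type mice, against 20.3% of all genes. In fed mice 2 of the 5, Cd52 and Cd53, were lower in PPARα-null mice, against 2.02% of all genes. Ptprc, the leukocyte surface protein CD45, read 584, 521 and 482 in wild-type fed, 325, 293 and 332 in wild-type fasted, 494, 433 and 407 in PPARα-null fed and 145, 126 and 139 in PPARα-null fasted arrays. As deposited, with the common shift included, the PPARα-null fasted arrays of Ptprc were below all others. The wild-type fasted arrays lay between them and the fed arrays. The summed intensity of these 5 genes was 1705 to 2037 in wild-type fed, 1038 to 1199.5 in wild-type fasted, 1461 to 1676 in PPARα-null fed and 611 to 645 in PPARα-null fasted arrays.

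Of 14 measured genes of T and natural killer cells 7 were tested upon fasting, and 2 fell in PPARα-null mice, a share near the 29.1% of all genes. One of them was Gzmb, the granzyme of cytotoxic cells (96.1, 230.1 and 159.8 in wild-type fed, 67.2, 72.1 and 62.4 in wild-type fasted, 93.7, 63.7 and 76.1 in PPARα-null fed and 9.06, 7.17 and 10.1 in PPARα-null fasted arrays). The other was Cd8a, by its weaker probe set (−0.96 ± 0.14). Between genotypes 4 of 7 tested were lower in fed PPARα-null mice (Cd3g, Cd8a, Gzma and Gzmb), against 2.02% of all genes. In fasted PPARα-null mice 5 of 6 were lower, against 20.3% of all genes. Cd3e, a defining gene of T cells, read 10.2 to 14.4 in every array. The summed T and natural killer intensity was 1944 to 2416 in wild-type fed, 1312 to 1675 in wild-type fasted, 1147 to 1598 in PPARα-null fed and 756 to 999 in PPARα-null fasted arrays. Genes of B and plasma cells fell in PPARα-null mice for 5 of 5 tested, against 29.1% of all genes. The summed intensity of genes of B and plasma cells was 4691 to 5201, 3280 to 4090, 4069 to 4625 and 1748 to 2543 in the same order of groups. Those of macrophages and dendritic cells fell for none of 5, with a median change of −0.14, and sums of 1845 to 1920.4, 1169 to 1267, 1667 to 1759 and 1075 to 1113. None of the 7 measured neutrophil genes had the level for the test.

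Enterocyte genes had a median change of −0.03 in PPARα-null mice, and their summed intensity was 71829 to 74498 in fed and 66342 to 69529 in fasted arrays. Exocrine pancreas genes were higher in all wild-type fasted arrays and in PPARα-null fasted replicates 1 and 3 (geometric mean over 17 genes 459.6 to 1005). They were at the fed level in PPARα-null fasted replicate 2 (27.4). The member geometric mean was 43.1 in that array and 38.3 and 36.8 in the other 2 of its group, and 20 of the 37 members read highest in it. The part of pancreas signal in the members' levels was not tested. With the mean of the T and natural killer genes as a covariate 14 members were called lower upon fasting of PPARα-null mice in place of 24, and the interaction was called for 15 in place of 14. With the mean of the 5 leukocyte genes as the covariate, an alternative added after the data were seen, the counts were 7 and 4, and the median change of the members upon fasting of PPARα-null mice was −2.93. Since these covariates follow the groups, genotype, feeding state and leukocyte signal cannot be told apart in them.

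**Figure D5:**
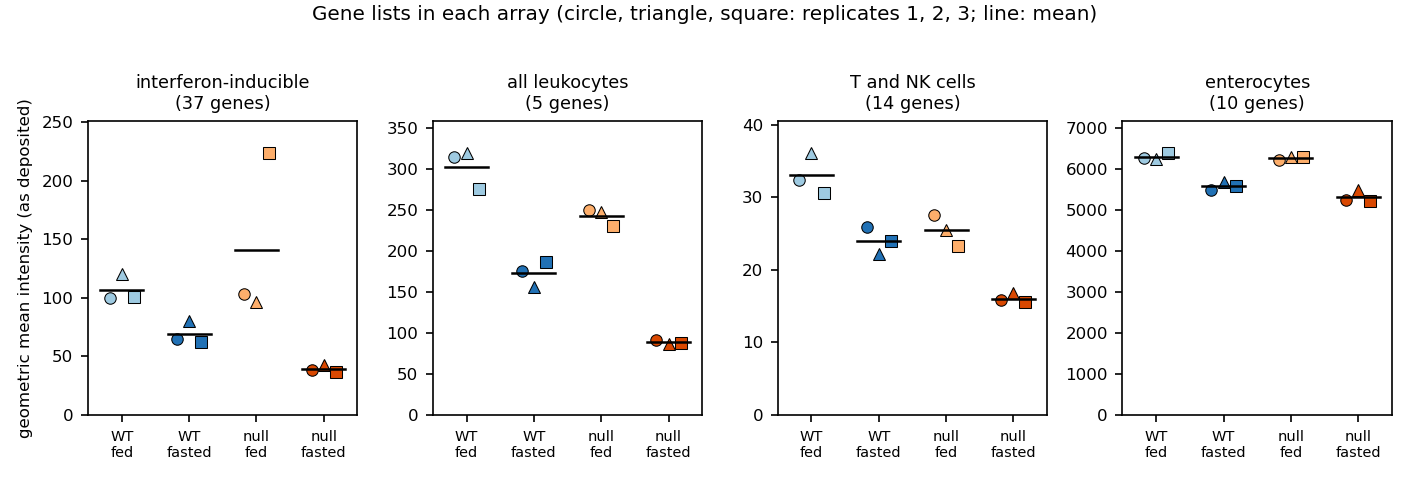
Geometric mean intensity (as deposited, linear axis from 0) over the 37 interferon-inducible genes and over marker genes of all leukocytes, of T and natural killer cells and of enterocytes, in each of the 12 arrays with a line at the group mean. Leukocyte markers, like the members, are lowest in PPARα-null fasted arrays, whereas PPARα-null fed replicate 3 is high for the members alone among the lists shown.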

How the data were processed

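RNA of the small intestine was measured on 12 Affymetrix 430A arrays, 3 for each of the groups wild-type fed, wild-type fasted, PPARα-null fed and PPARα-null fasted. The intensity values were deposited by the authors after GCRMA 2.20 (per the labels), which corrects background by probe composition and normalizes between arrays, and they are on a linear scale. The median intensity differed between fed and fasted arrays, and no source used here gives the genome build behind the annotation of the array. Signal near background limits the precision of low probe sets, as does the number of arrays.

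The deposited intensities were taken to log2, and the median difference between fasted and fed arrays over expressed probe sets was subtracted from the fasting contrasts. All 12 arrays were fitted with 1 mean per group in limma 3.58.1 (R 4.3.3) with moderated variances, over all probe sets, with Benjamini-Hochberg adjustment over those that passed the level filter. Calls needed a fold over 1.3 with p under 0.01 before adjustment (for the interaction, with adjusted p under 0.05), and an intensity over 20 in wild-type fed mice for fasting, in either compared group for the genotypes and in any group for the interaction. A gene was called when any of its probe sets was, and the probe set of highest mean gave its values unless another is named. Probe sets with 1 gene symbol (20393) were used, and those with several (691) or none (1606) were left out of gene counts. The fits were tested on simulated data.

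Values in every array are given for members called in at least 2 of the 5 contrasts, for the 12 with the widest range of group means and for exceptions, and per contrast for up to 12 called members in each direction and up to 3 abundant ones without a call. The members and the lists of pathway and marker genes were chosen with earlier results of these data known. Alternatives were the shift, normalization, level filter, call rule, variance model, array weights, probe set choice, covariates for pancreas, T and natural killer or leukocyte genes, the replicate number as a block and leaving out arrays. Motifs were searched in RefSeq promoter windows of GRCm38.p6 with Python 3.11.15, and figures were drawn with matplotlib 3.10.9.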

Additional observations from a re-analysis of the deposited data

Results flagged for a closer look

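The response to fasting differed between the genotypes, by the interaction term of the limma fit, for 14 members, and each of them was lower in fasted PPARα-null mice. The difference of the log2 responses (wild-type minus PPARα-null) was 3.89 for Irgm2, 3.32 for Parp14, 3.19 for Tmem140, 2.10 for Ifit1, 1.95 for Oasl2, 1.53 for Psmb9, 1.49 for Ifi47, 1.29 for Irf1, 1.07 for Parp9, 0.92 for Irf8, 0.80 for Ifi35, 0.77 for Psmb8, 0.68 for Psmb10 and 0.68 for Nmi. The genotypes are also different substrains, so that the deletion and the substrain cannot be told apart in these differences.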

How the results depend on the processing

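With single arrays left out, the median change of the members stayed between −1.38 and −0.70 upon fasting of PPARα-null mice (21 to 26 called lower, 0 to 1 higher), between −0.35 and −0.17 upon fasting of wild-type mice (0 to 7 lower, 0 higher), between −0.68 and −0.55 between fasted genotypes (12 to 20 lower, 0 higher), between −0.13 and 0.37 between fed genotypes (0 to 1 lower, 1 to 3 higher) and between 0.40 and 0.99 for the interaction (13 to 15 called). Of the fed genotype counts, 3 came without PPARα-null fed replicate 2 and 2 without PPARα-null fed replicate 1, against 1 with all arrays. Upon fasting of wild-type mice 12 members were called lower as deposited, 7 with only the compared groups in the fit, and 0 with the pancreas or the T and natural killer covariate. The T and natural killer covariate gave medians of −0.78 for fasting of wild-type mice, −1.69 for fasting of PPARα-null mice (14 called) and −1.24 between fasted genotypes (8 called). The leukocyte covariate, added after the data were seen, gave −1.31, −2.93 (7 called) and −1.87 (8 called), 1 member called lower between fed genotypes, and a median of 1.63 for the interaction (4 called). It also turned the change of Ppara upon fasting to −0.31 in wild-type and −1.18 in PPARα-null mice. Without PPARα-null fasted replicates 1 and 3, which leaves 1 array assumed to vary like the other groups, 14 members were lower upon fasting of PPARα-null mice, 8 between fasted genotypes and 7 had an interaction. The cause of these differences was not tested. The last setting both lowers the number of arrays and leaves out the PPARα-null fasted arrays that were high in exocrine pancreas genes.

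The replicate numbers do not pair the samples: 5 of 18 pairs of arrays of the same number correlated over 0.1 in their deviations from the group means (−0.20 to 0.23). With the replicate number as a block 2 members were lower upon fasting of wild-type mice, 23 upon fasting of PPARα-null mice and 16 between fasted genotypes, 1 was higher between fed genotypes and 14 had an interaction. Among calls of single members, that of Ifi47 upon fasting of wild-type mice was lost in 14 of 29 alternatives, that of Irf7 upon fasting of PPARα-null mice in 12 and that of Irgm1 in 10.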
